A study of Homo sapiens with 12 samples.

Results

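The genes described here are the enzymes of glycolysis, the transporters and regulators that feed and steer it, and a set of genes induced by the hypoxia-inducible factor HIF, in HK-2 cells exposed to CsA. All probe sets annotated to exactly 1 gene among 35 listed genes were taken. They number 71 of the 54675 probe sets on the array and cover 34 of the 35 genes; CA9, a carbonic anhydrase of the cell surface, had no probe set with a single gene symbol. By role the list holds 2 glucose transporters, 15 glycolytic enzymes, 3 flux regulators, 14 HIF targets and HIF1A, the oxygen-sensitive subunit of HIF.

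HK-2 is a single immortalized cell line derived from human kidney proximal tubule, and all 12 arrays come from it. 4 groups of 3 arrays were compared: control at 12 h, CsA at 12 h, control at 48 h and CsA at 48 h. CsA is read here as cyclosporin A, an immunosuppressant that binds cyclophilins and inhibits calcineurin. The cells were plated a day ahead in a defined medium with insulin, epidermal growth factor and hydrocortisone; neither the CsA dose nor the vehicle is named in the labels. Of the 12 proximal tubule markers with a probe set, 5 were measured above log2 4 on at least 3 arrays, while LRP2, CUBN, AQP1, SLC34A1, GGT1, ANPEP and VIL1 were not. Of 5 epithelial markers 4 were, and none of 5 endothelial and none of 4 leukocyte markers was. Markers of other kinds also reached that level: 4 of 5 for fibroblast and mesangial cells, 2 of 4 for podocytes and 2 of 4 for the distal nephron.

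Glycolysis splits glucose into pyruvate in the cytosol, and LDHA reduces pyruvate to lactate so that the pathway can run without oxygen. HIF consists of an unstable alpha subunit and a constant partner; with oxygen present, prolyl hydroxylases such as EGLN1 and EGLN3 mark the alpha subunit for destruction through VHL, and without it HIF binds hypoxia response elements and induces both glycolytic genes and genes for vessel growth, matrix hydroxylation and mitochondrial turnover. The proximal tubule in the kidney relies mainly on oxidative metabolism, and cultured tubule lines are known to use more glycolysis. Arrays measure messenger RNA, so the protein-level control of HIF1A is outside these data.

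The core of the hypoxia response element, ACGTG, was sought on both strands in RefSeq promoters (GRCh38.p14, 250 bases before to 50 after each listed start); a CACGTG block reads as a match on either strand and so counts on both. Of all 35116 promoters, 21.4% held the motif. Among the listed genes, 31 had 57 promoters in the table, and 23 of these (40.4%) held it, with 14 of 35 promoters of glycolytic enzymes (40.0%) and 7 of 14 of HIF targets. The table had no entry for SLC2A3, VEGFA, NDRG1 or BNIP3L. Among genes that fell between the controls at 12 h and 48 h, no listed start of PKM, ENO1, PGAM1, HK1 or PFKFB4 held a match. Nor did any of ADM, SLC2A1 or KDM3A, which rose. The promoters below are examples that held matches, from genes whose levels went opposite ways between these controls. Whether the motif bears on the direction was not tested. PGK1 and LDHA fell, and HK2 and ANKRD37 rose. Capitals mark ACGTG or its reverse complement CACGT, and a match is a run of letters, not a measured binding site. The windows are chrX:78103998-78104297 for PGK1, chr11:18394313-18394612 for LDHA, chr2:74833877-74834176 for HK2 and chr4:185396591-185396890 for ANKRD37, all on the plus strand. HK2 and LDHA each have 2 listed starts, and the first is shown; the second start of LDHA held no match and that of HK2 (chr2:74834920-74835219) held 4.
PGK1: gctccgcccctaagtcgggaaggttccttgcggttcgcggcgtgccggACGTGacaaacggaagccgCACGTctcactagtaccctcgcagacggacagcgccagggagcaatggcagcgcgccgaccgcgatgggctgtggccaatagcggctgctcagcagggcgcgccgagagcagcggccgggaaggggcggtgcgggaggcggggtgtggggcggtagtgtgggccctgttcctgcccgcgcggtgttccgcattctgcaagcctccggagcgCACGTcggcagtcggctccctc
LDHA: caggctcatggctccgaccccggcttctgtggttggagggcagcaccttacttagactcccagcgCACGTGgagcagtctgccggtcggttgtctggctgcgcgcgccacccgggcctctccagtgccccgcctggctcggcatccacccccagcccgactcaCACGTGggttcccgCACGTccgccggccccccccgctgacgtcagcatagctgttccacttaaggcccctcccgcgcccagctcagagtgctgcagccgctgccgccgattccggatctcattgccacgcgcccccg
HK2: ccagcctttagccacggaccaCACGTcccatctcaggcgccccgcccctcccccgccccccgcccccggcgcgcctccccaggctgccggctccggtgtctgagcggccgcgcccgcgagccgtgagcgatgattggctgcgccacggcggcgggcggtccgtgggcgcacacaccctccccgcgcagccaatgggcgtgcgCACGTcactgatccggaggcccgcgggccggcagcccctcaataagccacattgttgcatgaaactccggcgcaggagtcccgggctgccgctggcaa
ANKRD37: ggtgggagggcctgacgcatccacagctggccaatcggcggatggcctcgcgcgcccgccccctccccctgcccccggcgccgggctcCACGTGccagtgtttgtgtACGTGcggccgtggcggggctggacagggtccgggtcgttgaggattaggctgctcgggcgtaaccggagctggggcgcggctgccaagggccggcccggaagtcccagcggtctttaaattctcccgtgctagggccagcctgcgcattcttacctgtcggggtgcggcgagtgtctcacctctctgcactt
The motif was matched 3 times in the PGK1 window, 5 times in that of LDHA, 2 times in that of HK2 and 3 times in that of ANKRD37.

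Values are log2 probe set signals, so a difference of 1 is a 2-fold change. Of the 71 probe sets, 58 from 32 genes lay above log2 4 on at least 3 arrays and were tested among 20625 probe sets with limma, with Benjamini-Hochberg adjustment over all of them and a threshold of 0.05. The 13 others lay near the floor, among them every probe set of ALDOC, a second aldolase, and of EGLN3. Where a gene has several probe sets, the one with the highest mean over all arrays stands for it unless another is named. The arrays were alike in the share of probe sets above log2 4, from 42.2% to 42.8%. The third CsA 48 h array stood apart: its hybridization controls had a median of 7.38 against 9.89 to 11.42 on the other arrays, and its mean over 15 mitosis genes was 10.19 against 8.30 and 7.67 on the other CsA 48 h arrays. The first array of each 48 h group had low polyadenylated spike-in controls, 4.32 in the control and 5.04 with CsA against 8.38 to 10.18 elsewhere. The 3' minus 5' difference of the ACTB control probe sets was 1.22 on the third CsA 48 h array and 1.33 on the first 48 h control against 0.73 to 0.98 elsewhere, and that of GAPDH 0.14 on the former against -0.11 to 0.02 elsewhere. The part of these features in the results was not tested beyond leaving arrays out. The median SD between replicates was 0.12 in both 12 h groups, 0.17 in the 48 h controls and 0.22 in the 48 h CsA group.

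The first comparison is between the controls at 12 h and 48 h, which shows how these genes differed between the times without CsA. Whatever else changed along with time in culture cannot be told apart from it. Glycolytic enzymes and HIF targets went opposite ways. Of the 14 enzymes tested, 9 fell, 1 (HK2) rose and 4 did not pass the test, with a median log2 change of -0.52. Of the 12 HIF targets tested, 7 rose, none fell by its highest probe set and 5 did not pass, with a median of 0.59. The median over all genes tested was 0.03. A large part of the transcriptome differed between the times: 39.3% of all probe sets passed (20.4% higher, 18.8% lower). Of the 58 listed probe sets 36 did, 16 higher and 20 lower. In simulations of this comparison, 200 of 20625 probe sets were changed. There 11.1% of the calls were false and 56.0% of the 2-fold changes were recovered. The share changed there is far below the 39.3% that passed here, so these are not error rates of the calls reported. By role, 17 of 29 enzyme probe sets were lower and 3 higher, against 11 higher and 1 lower among 20 probe sets of HIF targets. All 48 h arrays lay above all 12 h arrays for 19 of the 58 and below for 25, against 28.4% and 26.9% of all probe sets. The mean over 15 mitosis genes moved in the same comparison, from between 11.78 and 11.90 at 12 h to between 9.26 and 9.68 at 48 h, and its part in these changes was not tested. In such bulk samples fewer cells of a kind and less RNA per cell cannot be told apart.

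**Figure D1:**
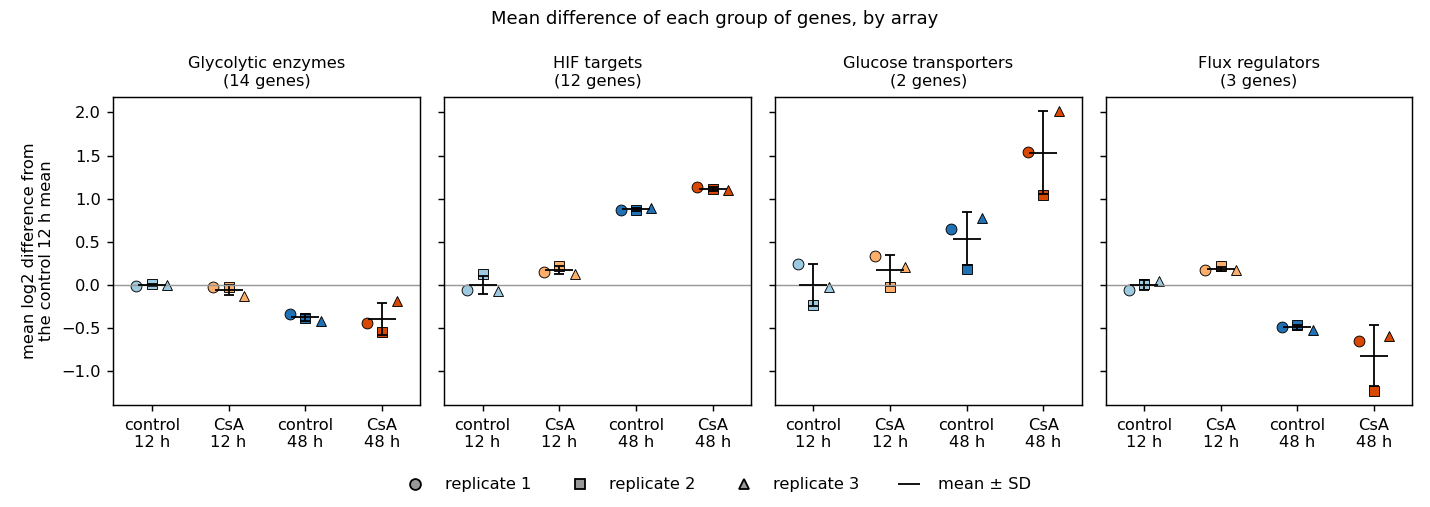
Mean log2 difference of each group of genes from its control 12 h mean (vertical axis, log2 units), for every array by group (horizontal axis); symbols are replicates, and lines and bars are the group mean and SD. The enzymes lie between -0.33 and -0.42 on the 48 h control arrays and the HIF targets between 0.87 and 0.89.

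The separation held on each array. Averaged over the 12 HIF targets, the 48 h control arrays lay 0.87, 0.87 and 0.89 above the 12 h control mean, and averaged over the 14 enzymes they lay at -0.33, -0.38 and -0.42. At 48 h with CsA the HIF target means were 1.14, 1.11 and 1.10, each above every control array. By gene, however, the differences from the 48 h controls had a median of 0.05, with 7 above 0 and 5 below. The largest were those of NDRG1 (0.91), VEGFA (0.82) and P4HA2 (0.73). The enzyme means with CsA were -0.44, -0.55 and -0.19, which overlap the controls; the value nearest 0 belongs to the third array.

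Among the transporters, SLC2A1 (GLUT1), the basal glucose carrier, rose between the controls. Its values were 8.72, 8.30 and 8.47 at 12 h and 9.60, 8.78 and 9.71 at 48 h. The groups did not overlap, and the log2 change was 0.87 (SE 0.26, adjusted p = 0.0434), though the second 48 h control lay close to the highest 12 h control. The call rests on few arrays: it held without the second 48 h control (1.16, adjusted p = 0.00469) and was lost on leaving out any other array, with changes from 0.69 without the third 48 h control to 0.98 without the first 12 h control and adjusted p from 0.0705 to 0.122. SLC2A3 (GLUT3), a high-affinity carrier, did not pass, at 9.85 ± 0.27 (SD, n = 3) and 10.06 ± 0.13 (SD, n = 3), and its 3 probe sets gave log2 changes from 0.21 to 0.45. The last, 202499_s_at, missed the threshold (adjusted p = 0.0946) and passed with the replicate number as a block (adjusted p = 0.0455).

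The enzymes that fell lie at steps from the entry of the pathway to lactate, though not at all of them. GAPDH and LDHB, outside the list, did not pass by their highest probe sets. They gave -0.03 (adjusted p = 0.782) and 0.04 (adjusted p = 0.739). PKM, the pyruvate kinase of most proliferating cells, had values of 14.63, 14.55 and 14.57 at 12 h and 13.54, 13.53 and 13.68 at 48 h. All 48 h arrays lay below all 12 h arrays, a change of -0.998 (SE 0.08, adjusted p = 0.000421), or 2.00-fold lower; its dimmer probe set 213700_s_at gave -0.39 (adjusted p = 0.0737). LDHA had 15.29, 15.24 and 15.31 at 12 h and 14.55, 14.36 and 14.46 at 48 h. The groups were far apart again, with a change of -0.82 (SE 0.08, adjusted p = 0.000874), or 1.77-fold lower. PGK1, which makes the first ATP of the pathway, had 14.48, 14.38 and 14.41 at 12 h and 13.75, 13.70 and 13.76 at 48 h. Its change was -0.69 (SE 0.07, adjusted p = 0.00103), and 4 of its 5 tested probe sets fell, with changes of -0.69 to -0.996; the exception, 217383_at, was dim.

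The other enzymes that fell did so by 1.39-fold to 1.74-fold. HK1, the constitutive hexokinase, went from 12.14 ± 0.10 (SD, n = 3) to 11.34 ± 0.04 (SD, n = 3), a change of -0.80 (adjusted p = 0.00105). GPI, which converts glucose 6-phosphate to fructose 6-phosphate, changed by -0.65 (adjusted p = 0.00182); it missed the threshold, at 0.0627, when all 12 arrays shared 1 estimate of spread. ALDOA, which cleaves the 6-carbon sugar, changed by -0.57 (adjusted p = 0.00225), and all 3 of its probe sets fell. ENO1 (-0.55, adjusted p = 0.0033), PGAM1 (-0.50, adjusted p = 0.00441) and TPI1 (-0.48, adjusted p = 0.00319) catalyse later steps. In each of these 6 genes, all 48 h arrays lay below all 12 h arrays by the highest probe set. PFKL, PFKM and PFKP, the phosphofructokinase subunits that catalyse the committed step, did not pass by their highest probe sets, at -0.23, 0.28 and 0.05, and the second probe set of PFKL fell by 0.41 (adjusted p = 0.0363). ENO2, the neuronal enolase and a known HIF target, did not pass either, at -0.09.

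HK2, the inducible hexokinase and itself a known HIF target, went the other way. Its probe set 202934_at had 5.70, 5.50 and 5.22 at 12 h and 6.94, 7.39 and 6.35 at 48 h, without overlap. The change was 1.42 (SE 0.27, adjusted p = 0.00882), or 2.68-fold. The probe sets 222305_at and 239410_at gave 2.03 (adjusted p = 0.0108) and 0.80 (adjusted p = 0.0430). The last of these, which has the highest mean of the 3, kept its call on leaving out the third 48 h control (1.05, adjusted p = 0.0106) and lost it on leaving out any other array, with changes from 0.67 without the first 48 h control to 0.94 without the second 12 h control and adjusted p from 0.0508 to 0.128. It was also lost with all 12 arrays in 1 model (adjusted p = 0.159).

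The flux regulators differed among themselves. PDK1, which inhibits pyruvate dehydrogenase and so limits the conversion of pyruvate to acetyl-CoA in the mitochondria, had 9.31, 9.44 and 9.33 at 12 h and 10.07, 9.71 and 9.73 at 48 h by its bright probe set 226452_at. That is a rise of 0.48 (SE 0.12, adjusted p = 0.0220), which was lost without the first (0.45, adjusted p = 0.0745) or the third (0.46, adjusted p = 0.0742) 12 h control; its dimmer probe set 206686_at gave -0.21 and did not pass. PFKFB3 and PFKFB4 make fructose 2,6-bisphosphate, the activator of phosphofructokinase, and both fell. PFKFB3 changed by -0.65 (SE 0.12, adjusted p = 0.00708). PFKFB4 had 5.79, 5.99 and 6.27 at 12 h and 4.32, 4.94 and 4.91 at 48 h, a change of -1.29 (SE 0.21, adjusted p = 0.00466), or 2.45-fold lower.

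The largest rises among the HIF targets were those of secreted factors. VEGFA, the main growth factor of endothelial cells, is read by 4 probe sets, and all 4 rose. By 210512_s_at it had 10.22, 10.26 and 9.79 at 12 h and 12.72, 12.52 and 12.60 at 48 h. The change was 2.52 (SE 0.15, adjusted p = 0.000177), or 5.75-fold, and the 4 probe sets ranged from 1.87 to 2.66. ADM, the vasodilator peptide adrenomedullin, had 9.90, 10.59 and 10.19 at 12 h and 11.72, 12.59 and 12.00 at 48 h. Both groups spread widely but stayed apart, with a change of 1.88 (SE 0.27, adjusted p = 0.003).

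Targets that act inside the cell rose by less or did not pass. MXI1, which opposes MYC, changed by 1.55 (SE 0.15, adjusted p = 0.00084), from 9.47 ± 0.14 (SD, n = 3) to 11.02 ± 0.26 (SD, n = 3). NDRG1, a stress-induced gene linked to differentiation, changed by 1.48 (SE 0.25, adjusted p = 0.00545). BNIP3L, a receptor for removal of mitochondria, rose by 0.73 (adjusted p = 0.00274) and 0.53 (adjusted p = 0.0161) by its 2 probe sets. Its relative BNIP3 did not pass, at 0.14 and 0.05. KDM3A, a histone demethylase, rose by 0.44 (adjusted p = 0.00745). ANKRD37, a small ankyrin repeat protein, rose by 0.92 (adjusted p = 0.0293). That call was lost on leaving out the first 12 h (0.98, adjusted p = 0.0652), the third 12 h (0.73, adjusted p = 0.0826), the first 48 h (0.69, adjusted p = 0.0502) or the second 48 h control (1.00, adjusted p = 0.0507). The collagen prolyl hydroxylase subunits P4HA1 and P4HA2 gave 0.33 and 0.35 and did not pass; P4HA1 passed without the first 48 h control (0.45, adjusted p = 0.0145). DDIT4, an inhibitor of mTORC1, gave 0.43 and did not pass.

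EGLN1, the prolyl hydroxylase that marks HIF for destruction, was the HIF target that did not lie higher at 48 h. Its 3 probe sets gave -0.62, -0.27 and -0.23, and the first of these, 224314_s_at, passed (adjusted p = 0.0216). HIF1A itself had 14.36, 14.19 and 14.18 at 12 h and 14.17, 13.89 and 14.01 at 48 h. Although the groups just failed to overlap, the change of -0.22 (SE 0.11) did not pass (adjusted p = 0.152).

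**Figure D2:**
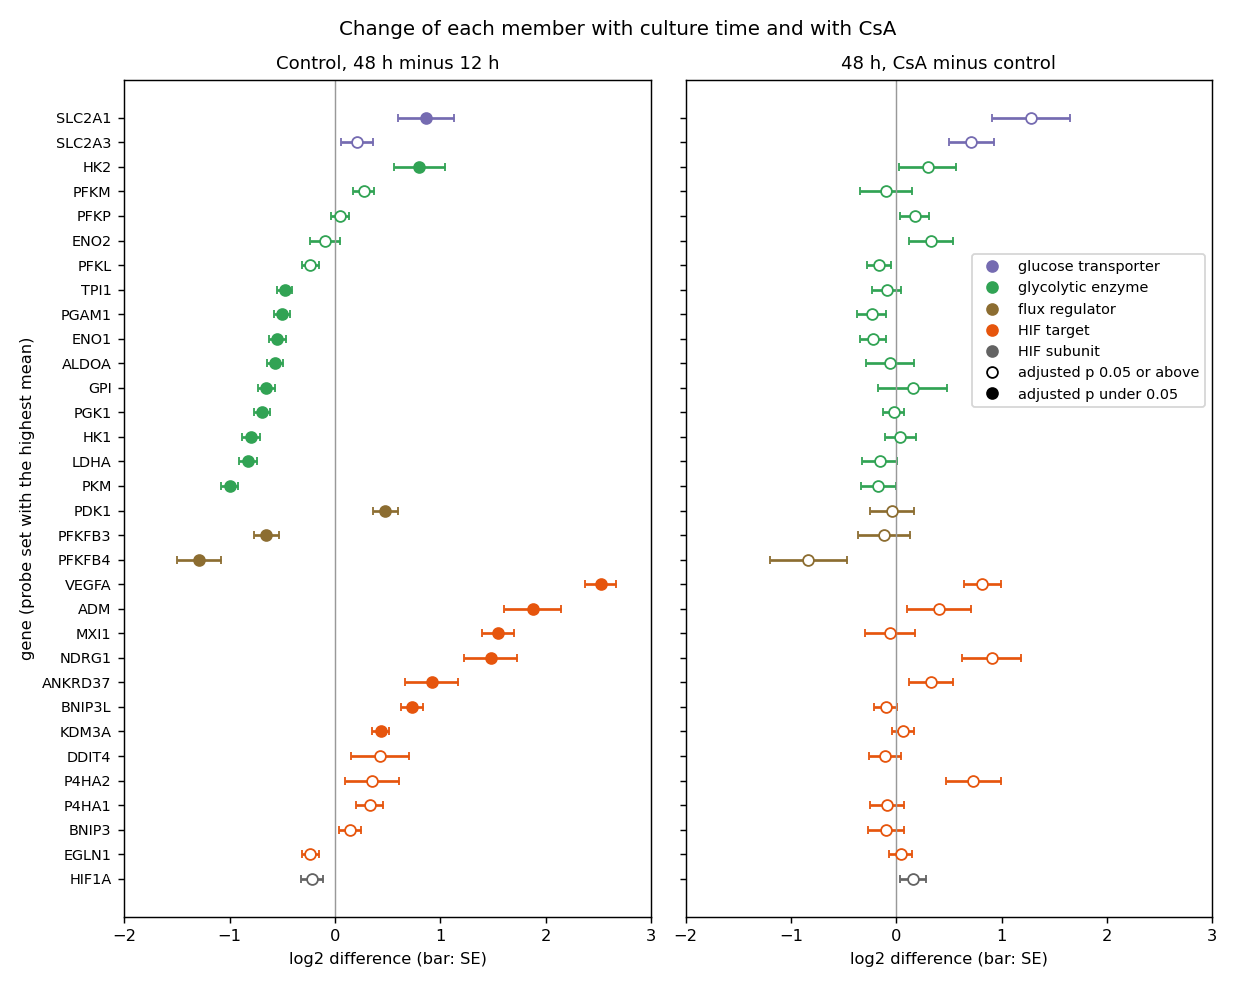
Log2 difference of each tested gene (vertical axis, grouped and coloured by role) between the controls at 48 h and 12 h (left) and between CsA and control at 48 h (right); points are the estimates of the highest probe set, bars the SE, and filled points have an adjusted p under 0.05. On the left, 9 enzymes lie to the left of 0 and 7 HIF targets to the right as filled points; on the right no point is filled.

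The second comparison asks what CsA did at 48 h. No listed probe set passed in the fit of the 6 arrays at that time, in which 0.0388% of all probe sets passed, all of them lower. By the highest probe sets, the largest positive differences belonged to VEGFA, the glucose transporters, NDRG1 and P4HA2. The enzymes had a median difference of -0.07 with 5 genes above 0 and 9 below, and the HIF targets a median of 0.05 with 7 above and 5 below. At an unadjusted p under 0.05 there were 11 of the 58 probe sets, against 19.5% of all probe sets. With all 12 arrays in 1 model, 8 of the 58 passed, all higher (4 of VEGFA and 1 each of SLC2A1, SLC2A3, NDRG1 and PDK1), where 12.7% of all passed, 4.52% higher and 8.18% lower. In simulations of this comparison, 200 of 20625 probe sets were changed, and both 48 h groups were given the same spread. There 41.1% of the calls of that shared model were false, against 5.43% for the fit of the 6 arrays. The latter recovered 43.4% of the 2-fold changes. The share changed there is far below the 12.7% that passed the shared model here, so these are not error rates of the calls reported. The mean over the mitosis genes ran from 7.67 to 10.19 with CsA and from 9.26 to 9.68 in the controls, and its part was not tested.

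VEGFA was higher with CsA on every array by each probe set. By 212171_x_at it had 10.23, 10.04 and 10.41 in the 48 h controls and 11.42, 11.53 and 11.14 with CsA. The difference was 1.14 (SE 0.16), or 2.20-fold, with an adjusted p of 0.0662, and of 0.00162 in the shared model. By 210512_s_at it had 12.72, 12.52 and 12.60 in the controls and 13.57, 13.65 and 13.07 with CsA. The difference was 0.82 (SE 0.18, adjusted p = 0.105). The probe sets 211527_x_at and 210513_s_at gave 1.39 (SE 0.21, adjusted p = 0.0694) and 1.498 (SE 0.43, adjusted p = 0.152). The groups did not overlap in any of the 4; all CsA arrays lay above all controls for 14 of the 58 listed probe sets and below for 3, against 12.5% and 15.0% of all probe sets. The third CsA array was the lowest of its group each time, and without it the difference by 210512_s_at was 1.00.

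**Figure D3:**
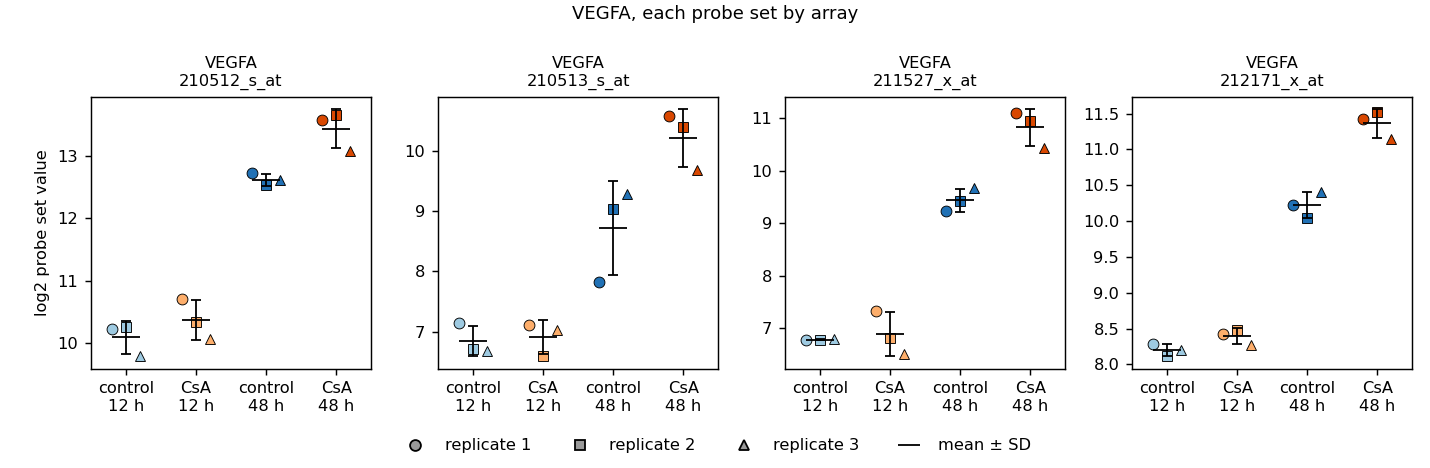
Log2 value of VEGFA by its 4 probe sets (one panel each, vertical axis in log2 units with its own range) on every array, by group; symbols are replicates, and lines and bars are the mean and SD. In each panel the 48 h controls lie above both 12 h groups, and the 48 h CsA arrays above the 48 h controls.

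The transporters followed. SLC2A1 had 9.60, 8.78 and 9.71 in the 48 h controls and 10.61, 10.07 and 11.24 with CsA. The groups did not overlap; the difference of 1.28 (SE 0.37), or 2.43-fold, had an adjusted p of 0.154 and of 0.0223 in the shared model. SLC2A3 had 10.03, 9.95 and 10.20 in the controls and 10.82, 10.37 and 11.13 with CsA. Its difference was 0.71 (SE 0.21, adjusted p = 0.157, and 0.0454 in the shared model), and its other probe sets gave 0.36 and 0.51. Without the third CsA array, the highest for both, the differences were 0.98 and 0.53.

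Further HIF targets were split. NDRG1 had 11.70, 10.73 and 11.40 in the controls and 12.32, 11.87 and 12.35 with CsA, without overlap. Its difference was 0.91 (SE 0.28, adjusted p = 0.166, and 0.0251 in the shared model). P4HA2 had 11.11, 10.44 and 11.36 in the controls and 11.85, 11.43 and 11.83 with CsA, a difference of 0.73 (SE 0.26, adjusted p = 0.212). In both genes the second control was the lowest, and without it the differences were 0.63 and 0.47. ADM and ANKRD37 gave 0.40 and 0.33 with overlapping groups. MXI1, which rose 2.92-fold between the controls, gave -0.06 with CsA. BNIP3, BNIP3L, DDIT4, EGLN1, KDM3A and P4HA1 lay between -0.11 and 0.06 by their highest probe sets. For some of them another probe set read otherwise. BNIP3L by 221479_s_at had 11.52, 11.82 and 11.81 in the controls and 12.05, 11.87 and 12.37 with CsA, a difference of 0.38 (SE 0.17, adjusted p = 0.294), and EGLN1 by 221497_x_at gave 0.19 (SE 0.11, adjusted p = 0.390), both without overlap. BNIP3 gave 0.08 by 201848_s_at and -0.10 by its highest. HIF1A gave 0.16 (SE 0.12, adjusted p = 0.526).

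**Figure D4:**
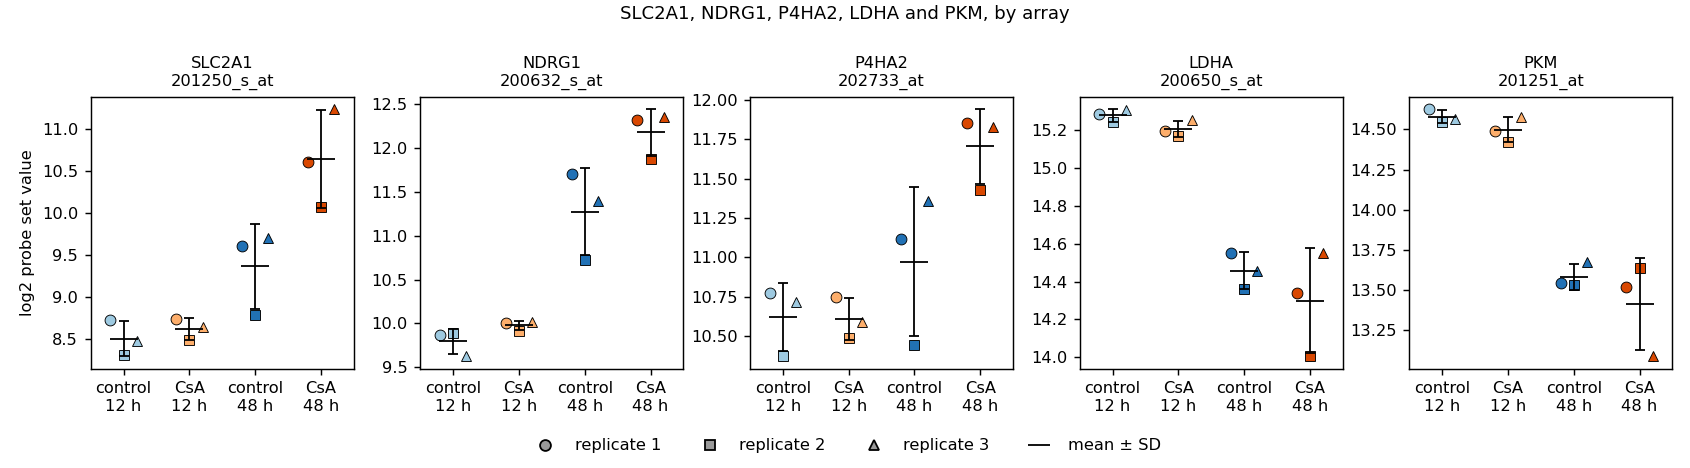
Log2 value on every array (vertical axis, its own range in each panel) of SLC2A1, NDRG1 and P4HA2, which lay higher with CsA at 48 h, and of LDHA and PKM, which fell between the controls; symbols are replicates, and lines and bars are the mean and SD. The CsA and control arrays at 48 h overlap in LDHA and PKM.

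Among the enzymes, LDHA had 14.55, 14.36 and 14.46 in the 48 h controls and 14.34, 14.00 and 14.55 with CsA. The groups overlapped, with a difference of -0.16 (SE 0.16, adjusted p = 0.644). The 2 largest differences by the highest probe set were those of ENO2 (0.33, SE 0.21) and HK2 (0.30, SE 0.27). ENO2 did not overlap: 9.77, 9.81 and 9.80 in the controls against 9.91, 9.88 and 10.58 with CsA, of which the last is the third array. HK2 gave 0.25 to 0.60 over its 3 probe sets, all with overlapping groups. ENO1 (201231_s_at) had 14.49, 14.34 and 14.35 in the controls and 14.33, 14.19 and 14.02 with CsA, a difference of -0.22 (SE 0.12, adjusted p = 0.394). PGAM1 had 14.55, 14.40 and 14.51 in the controls and 14.36, 14.39 and 14.01 with CsA, a difference of -0.23 (SE 0.14, adjusted p = 0.413). In both enzymes the CsA arrays lay wholly below the controls, and neither passed. The probe sets of PKM disagreed: 201251_at gave -0.17 with overlapping groups, whereas the dimmer 213700_s_at had 6.21, 6.26 and 6.50 in the controls and 6.70, 6.96 and 6.74 with CsA, a difference of 0.48 (SE 0.14, adjusted p = 0.148) without overlap. PGK1 gave -0.03, and its probe set 227068_at -0.38 (adjusted p = 0.235). In GPI and ALDOA the third CsA array lay above all controls, and the other CsA arrays lay below all of them. GPI had 11.65, 11.63 and 12.80 with CsA against 11.87, 11.82 and 11.93 in the controls. ALDOA had 13.48, 13.38 and 14.18 against 13.80, 13.72 and 13.69. The ENO1 probe set 217294_s_at read lowest on that array, with 13.41, 13.38 and 12.31.

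Of the flux regulators, PFKFB4 had 4.32, 4.94 and 4.91 in the controls and 4.63, 3.29 and 3.75 with CsA, near the floor, with a difference of -0.83 (SE 0.37, adjusted p = 0.284). PFKFB3 gave -0.12. The probe sets of PDK1 disagreed: 206686_at gave 0.77 (SE 0.25, adjusted p = 0.178), with 5.43, 6.19 and 6.25 in the controls and 6.70, 6.55 and 6.92 with CsA, whereas the brighter 226452_at gave -0.04. Without the first control, the lowest of its group and an array with low spike-in controls, the former was 0.50.

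At 12 h no listed probe set differed between CsA and control in the test, and neither did any of all 20625 (0%). At an unadjusted p under 0.05 there were 4 of 58, against 6.50% of all. The median difference was 0.16 over the HIF targets, with 9 of 12 genes above 0, and -0.07 over the enzymes, with 2 of 14 above 0, against -0.01 over all genes tested. ADM was the member that differed most: it had 9.90, 10.59 and 10.19 in the controls and 10.83, 11.38 and 10.80 with CsA. The groups did not overlap; 8 of the 58 lay wholly above the controls and 4 wholly below, against 6.20% and 5.78% of all probe sets. For ADM the difference was 0.78 (SE 0.23, adjusted p = 0.631). MXI1 gave 0.31 (SE 0.09, adjusted p = 0.637), also without overlap. The others with the largest differences of their roles were HK2 by 239410_at (-0.47, SE 0.48), for which the third CsA array read 4.68 against 6.35 and 6.44 on the others, SLC2A3 (0.23, SE 0.17), PDK1 (0.22, SE 0.07) and HIF1A (0.09, SE 0.10). The other HK2 probe sets had the opposite sign, 0.08 by 202934_at and 0.37 by 222305_at. VEGFA gave 0.07 to 0.28 over its 4 probe sets, SLC2A1 0.12 and LDHA -0.07, and none passed.

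The last comparison sets the effect of CsA at 48 h against that at 12 h. None of the 58 probe sets passed, where 0.320% of all did. In simulations of this comparison with 200 of 20625 probe sets changed, 11.1% of the calls were false. The lowest adjusted p among the 58 was that of VEGFA by 212171_x_at, for which the effect was larger at 48 h by 0.94 (SE 0.18, adjusted p = 0.0569). It passed on leaving out the third CsA 48 h array (1.05, adjusted p = 0.0192) or the third 48 h control (1.03, adjusted p = 0.0302). The probe set 211527_x_at gave 1.29 (SE 0.31, adjusted p = 0.103) and passed without the third CsA 48 h array (1.48, adjusted p = 0.0383). SLC2A1 gave 1.16 (SE 0.42, adjusted p = 0.229), and 0.0424 with the replicate number as a block. The effects on LDHA and PGK1 at the 2 times differed by -0.09 (SE 0.18) and 0.01 (SE 0.10).

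The contrast of time and of CsA can be read side by side for single genes; the 2 comparisons share the 48 h controls, so their values are not independent. VEGFA (210512_s_at) gave 2.52 with time and 0.82 with CsA at 48 h, SLC2A1 0.87 and 1.28, NDRG1 1.48 and 0.91. MXI1 gave 1.55 and -0.06, BNIP3L (221478_at) 0.73 and -0.10. PKM (201251_at) gave -0.998 and -0.17, and LDHA -0.82 and -0.16.

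Of 105 further genes of these pathways, 79 were tested. Between the controls 23 rose and 15 fell, where 23.1% of all 11154 genes tested were higher and 20.5% lower, and with CsA none passed at either time; those named here were chosen after their values were seen. In the HIF pathway itself 4 of 9 rose and none fell, among them EPAS1, the alpha subunit HIF-2α, with a change of 1.98 (SE 0.13, adjusted p = 0.000252), and CITED2, which competes with HIF for its coactivators, with 0.90 (adjusted p = 0.00374). Of 33 other HIF targets 12 rose and 7 fell. The rises included TMEM45A (2.84, adjusted p = 0.000972), STC2, a stanniocalcin (2.13, adjusted p = 0.000214), and PLIN2, which coats lipid droplets (0.83, adjusted p = 0.00193), and the falls SAP30, a histone deacetylase subunit (-0.99, adjusted p = 0.00152).

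Other genes of glucose metabolism moved both ways with time. Of 16 further glycolysis genes 2 rose, HKDC1, a hexokinase relative (1.97, adjusted p = 0.000176), and PFKFB2, the isoform that makes fructose 2,6-bisphosphate in heart and kidney (1.82, adjusted p = 0.000513). 3 fell, among them MPC2, a subunit of the mitochondrial pyruvate carrier (-0.71, adjusted p = 0.0116). Of 4 gluconeogenic genes 2 rose, the mitochondrial PCK2 (2.14, adjusted p = 0.000187) and PC, pyruvate carboxylase (0.78, adjusted p = 0.00722). Of 8 genes around pyruvate dehydrogenase 1 rose, the phosphatase PDP1 that reactivates it (1.08, adjusted p = 0.000725), and DLAT fell (-0.46, adjusted p = 0.0145). In the pentose phosphate pathway 1 of 6 rose and 3 fell. TXNIP, which restrains glucose uptake and is induced by glucose, fell by 2.47 on the log2 scale (SE 0.48, adjusted p = 0.00882).

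With CsA at 48 h these further genes had a median of -0.09 over 79. In the shared model 2 were higher and 14 lower by their highest probe sets, where 4.92% of all genes tested were higher and 8.64% lower. Over their 165 probe sets, 6 were higher and 21 lower, where 4.52% and 8.18% of all probe sets were. The lower values included SLC2A2, the low-affinity transporter GLUT2 (-3.58, SE 0.47, adjusted p = 0.0662 in the fit of the 6 arrays), TXNIP (-2.33, SE 0.40, adjusted p = 0.0781), IGFBP3 (-2.46, SE 0.72, adjusted p = 0.155) and SLC37A4, the glucose 6-phosphate translocase (-1.10, SE 0.14, adjusted p = 0.0662). PLOD2, a lysyl hydroxylase, gave -0.71 (SE 0.19, adjusted p = 0.136) by its highest probe set. EPAS1 was one of the 2 higher (0.68, SE 0.15, adjusted p = 0.103).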

How the data were processed

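Gene expression was measured on 12 Affymetrix arrays. The authors deposited log2 values per probe set, made with GCRMA per the submitters' processing notes; version, settings and genome build are not stated there. Its background step pulls dim probes to a floor, which understates their fold changes. No further normalization was applied.

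Of 54675 probe sets, 41097 had 1 gene symbol in the platform annotation, 1801 several and 11777 none. Those with 1 symbol above log2 4 on at least 3 arrays (20625) were tested with limma 3.58.1 in R 4.3.3; 6 control probe sets were left out. Each comparison of 2 groups used its own 6 arrays, and the difference of the CsA effects used all 12. Tests were two-sided with Benjamini-Hochberg adjustment. The fits were tested on simulated data in which 200 of 20625 probe sets were changed. The labels call the replicates biological but do not say whether cultures were separate, so p-values measure the spread between these samples. The number of arrays limits the precision.

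The members, lists, tests and alternatives were chosen with earlier results of these data known. Members past the threshold in a comparison, or with the largest change in their role, are given in full, as are HIF1A, VEGFA, HK2, LDHA and SLC2A1. Of the other lists, endothelial and leukocyte markers lay at means of 2.34 to 2.95 on single arrays, and fibroblast and mesangial markers (4 of 5 tested) at 5.21 to 6.45; podocyte markers had 2 of 4 genes tested and distal nephron markers 2 of 4. Same-numbered arrays deviated together at 12 h (r from 0.39 to 0.55) and over time in the controls (0.12 to 0.30), which counts as pairing, but not at 48 h (-0.15 to 0.31). Alternatives were the shared model, the replicate block, array weights, filters, normalization, priors, 1 probe set per gene, probe set types and leaving out arrays.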

Additional observations from a re-analysis of the deposited data

Results flagged for a closer look

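2 probe sets that name SLC2A3 together with SLC2A14 were left out of the comparisons, since they cannot be assigned to 1 gene. Both read higher on each CsA 48 h array than on each 48 h control: 216236_s_at had 10.24, 9.74 and 10.52 with CsA and 9.13, 9.32 and 9.63 in the controls, a difference of 0.81, and 222088_s_at had 9.89, 9.66 and 10.50 against 9.51, 9.22 and 9.59, a difference of 0.57. Neither was tested.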

How the results depend on the processing

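At 48 h the number of listed probe sets past the threshold with CsA went from 0 to 8 with all 12 arrays in 1 model, 4 with array weights and 2 with trend and robust priors; it stayed at 0 on leaving out any array, and so did the count at 12 h. For the difference of the CsA effects it went from 0 to 3 with array weights and to 1 with the replicate block, with a filter at log2 6 or with trend and robust priors, and lay between 0 and 2 on leaving out single arrays. Between the controls it went from 36 to 23 with 1 probe set per gene and to 13 without probe sets whose names end in x_at or s_at (fewer probe sets tested in both), and lay between 29 and 34 on leaving out single arrays. With the replicate block it was 37, and at 12 h and 48 h the count with CsA stayed at 0. Over all probe sets, the CsA 48 h count of 8 went to 2620 with all 12 arrays in 1 model, 1998 with array weights and 0 with the replicate block. Single changes were refitted for the highest probe set of each gene and for all tested probe sets of VEGFA and PDK1. Among these, 48 changes had an unadjusted p under 0.05 or were called in the shared model. Of their 793 alternatives none changed sign, 21 lost the call and 31 gained it. The 48 were selected on these same arrays, which made a change of sign unlikely from the start. Of 1703 alternatives for 96 smaller changes, 79 changed sign. Probe sets near the floor, such as PFKFB4 with CsA, limit what dim genes can show.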
